A study of Mus musculus with 5 samples.

Results

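The interferon response genes described here are 43 named mouse genes: the receptors for type I and type II interferon, the transcription factors that act after them, and genes that interferon is known to induce. They were matched by symbol in the deposited table of FPKM, which are counts scaled by gene length and library total. In the counts table they were matched by gene identifier. Their measured values played no part in the match, but the list was chosen with earlier results of these data known. All 43 were found, among 24984 genes in the counts table and 49671 in the FPKM table. All 43 were also among the 10105 genes that passed the filter on low counts for the test between cell types. CD45hi monocytes (2 libraries) and CD45lo microglia (3 libraries) came from wild-type C57Bl/6J males, 10 weeks old, whose corpus callosum had received 2 µl of 1% lysolecithin (LPC), a detergent-like lipid that removes myelin around the injection, and lesions were taken at 10 days (10 dpl). Every group therefore carried the lesion, and no library from uninjured tissue was analysed here. Both gates took living CD11b+ Ly6G- CD3- cells and differed only in CD45, a surface protein that resident microglia carry at a low level and cells arriving from blood at a high level. The sample labels call the CD45hi cells macrophages that derive from monocytes, and the paper calls them monocytes, the name used below.

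Interferons are secreted proteins that put cells into a defensive state. Type I interferons bind a receptor made of Ifnar1 and Ifnar2, and type II interferon (interferon-gamma) binds one made of Ifngr1 and Ifngr2. Kinases on these receptors activate Stat proteins, which enter the nucleus either with Irf9, binding an element called ISRE, or as pairs binding an element called GAS. The genes switched on encode sensors of viral nucleic acid, enzymes that degrade RNA or block replication, membrane proteins that hold back virus entry or release, and feedback inhibitors. Microglia and monocytes both carry these receptors, and an interferon program in microglia is well known from brain injury, demyelination and ageing.

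Because Stat proteins and Irf9 act through short DNA elements, the promoters of the members were read for both. Promoter windows of 300 bases, from 250 before to 50 after each start, came from RefSeq on GRCm38.p6 and were found for 33 of the 43 members. An ISRE was taken as GAAANNGAAA and a GAS element as TTCNNNGAA, where N is any base, on both strands, and matches of one may overlap matches of the other. An ISRE lay in the windows of 18 of the 33 members (54.5%), against 1079 of all 27025 genes with a window (3.99%). A GAS element lay in those of 9 of the 33 (27.3%), against 9.55% of all genes. Of the members with a match, Ifit1, Ifit3, Ifit3b and Oas1a are shown because neighbouring genes differed in the monocytes, Bst2 and Igtp because both monocyte libraries lay below all microglia libraries, and Isg15 and Irf1 as textbook examples of each element. They run 5′ to 3′ on the strand of the gene, with the element in capitals. Capitals that begin with TTTC are an ISRE read on the other strand, and longer runs of capitals are overlapping matches. The capitals mark a GAS element in Irf1 and an ISRE in the others. The stretches of Bst2 and Igtp also hold a GAS match, starting 136 and 45 bases before the start, that is not in capitals except where it runs into the ISRE of Bst2. Position is given as chromosome, start and end.
Isg15 (chr4:156200855-156200916, minus strand): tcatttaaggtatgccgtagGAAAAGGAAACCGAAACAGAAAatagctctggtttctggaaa
Ifit1 (chr19:34640765-34640833, plus strand): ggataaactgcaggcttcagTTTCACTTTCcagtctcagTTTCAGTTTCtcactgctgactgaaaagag
Ifit3 (chr19:34583353-34583436, plus strand): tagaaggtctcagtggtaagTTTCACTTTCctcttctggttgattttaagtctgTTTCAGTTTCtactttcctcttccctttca
Ifit3b (chr19:34607749-34607832, plus strand): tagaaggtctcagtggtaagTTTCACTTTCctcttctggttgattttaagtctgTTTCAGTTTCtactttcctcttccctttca
Oas1a (chr5:120907526-120907565, minus strand): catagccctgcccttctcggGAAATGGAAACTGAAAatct
Bst2 (chr8:71537567-71537622, minus strand): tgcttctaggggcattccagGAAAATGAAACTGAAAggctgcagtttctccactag
Igtp (chr11:58199502-58199551, plus strand): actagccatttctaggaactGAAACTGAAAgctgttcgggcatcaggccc
Irf1 (chr11:53769904-53769952, plus strand): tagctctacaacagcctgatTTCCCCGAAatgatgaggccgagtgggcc
The 84 bases shown for Ifit3 and Ifit3b were identical, with 0 differences, although their genes lie apart on chromosome 19. A match is a description of letters and not of a factor bound there.

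Read pairs assigned to genes came to 3417150 and 6514611 in the monocyte libraries and 5890081 to 9021700 in the microglia libraries. Genes with 10 or more reads numbered 1392 and 4230 in monocytes, against 5994 to 11653 in microglia, where library 3 held the fewest. Before library preparation the authors amplified the cDNA, so reads are not independent molecules, and intervals below cover counting error only. The 14 markers of homeostatic microglia summed to 3098 and 8686 CPM (counts scaled to the total of the library) in monocytes, against 12232 to 29433 CPM in microglia. The 16 classical monocyte markers summed to 6089 and 3369 CPM in monocytes, against 192 to 1549 CPM in microglia, but Ly6c1, Ly6c2, Chil3, S100a6 and F10 were at 0 in all 5 libraries. Of the 14 endothelial and mural markers, 7 and 5 had a read in monocytes and 7 in each microglia library, with sums of 4.68 and 507 CPM in monocytes, against 12.7 to 283 CPM in microglia. Nearly all of the higher monocyte value was Flt1. Astrocyte markers summed to 2183 and 51.3 CPM in monocytes, against 26.1 to 97.4 CPM in microglia, and nearly all of the higher value was Nfib, while Aldh1l1 and Gja1 were at 0 everywhere. T and NK cell markers summed to 0.878 and 365 CPM in monocytes, against 2.55 to 62.3 CPM in microglia, with Cd3d, Cd3e and Trac at 0 in all. B cell markers summed to 7.90 and 530 CPM in monocytes, against 453 to 524 CPM in microglia, and those of plasmacytoid dendritic cells to 7.90 and 571 CPM, against 417 to 521 CPM. Oligodendrocyte markers summed to 1.76 and 1.07 CPM in monocytes, against 9.85 to 164 CPM in microglia, neuron markers to at most 32.2 CPM, against at most 15.7 CPM, and neutrophil markers to 0.585 and 0 CPM, against 0 to 0.170 CPM. The part of other cells in the results below was not tested.

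Few of the interferon response genes were well read in monocyte library 1, and nearly all were in microglia libraries 1 and 2. At least 1 read was found for 31 and 37 of the 43 in monocytes, against 43, 43 and 38 in microglia. At least 100 reads were found for 4 and 23 members in monocytes, against 36, 41 and 10 in microglia. With every library thinned to 3417150 counts, the number expected with a read was 31 and 35.3 in monocytes, against 43, 43 and 35.6 in microglia, which left the order of the libraries as it was. In bulk libraries such as these, fewer cells that express a gene and less of its RNA in each cell cannot be told apart. The paper reports a far smaller average yield of monocytes than of microglia per mouse, and less RNA sequenced from monocytes. The labels do not give the cells in each library, and the part of cell number in these values was not tested.

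**Figure D1:**
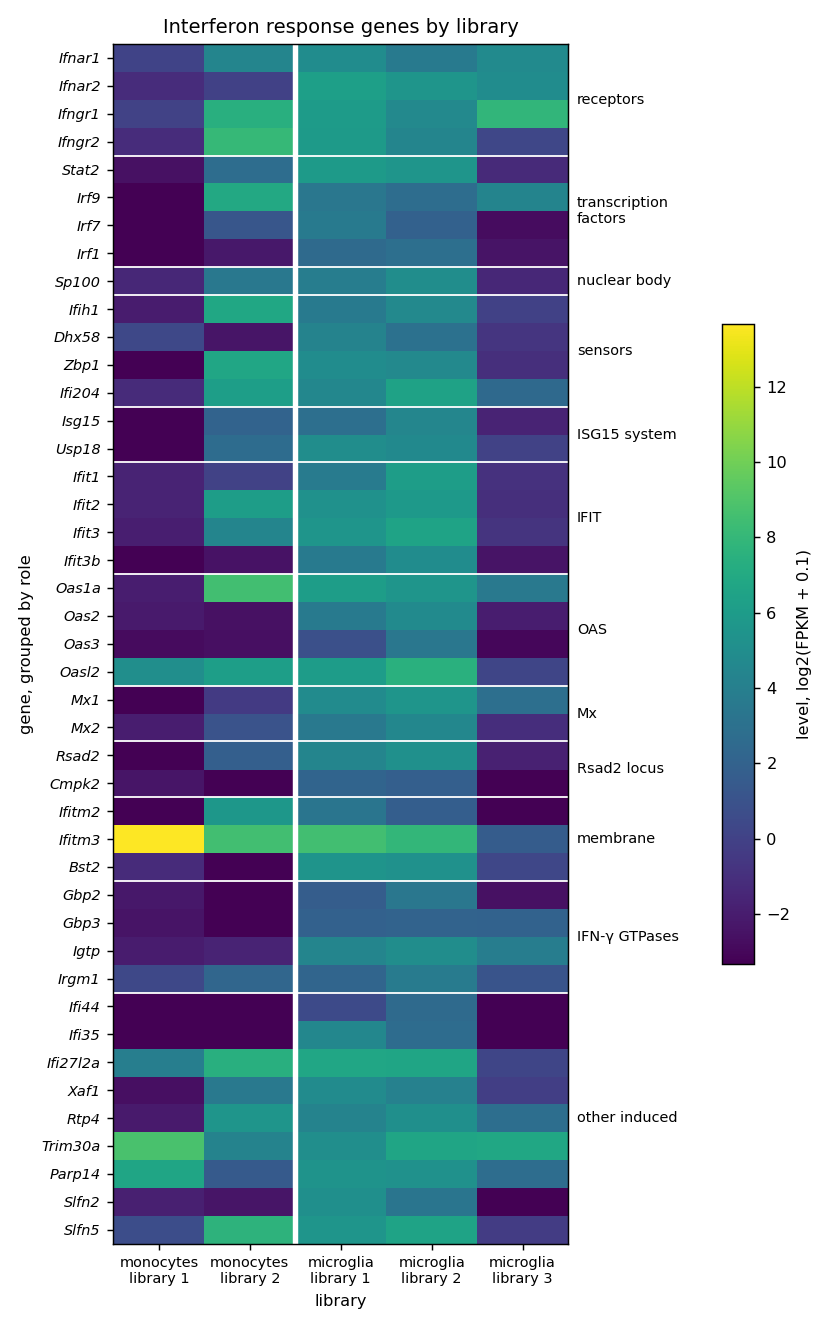
Level of each of the 43 interferon response genes as log2(FPKM + 0.1), by colour, with genes in rows grouped by role and the 5 libraries in columns, monocytes left of the white line and microglia right of it. Microglia libraries 1 and 2 show a level for every member, monocyte library 1 shows few besides Ifitm3 at 13071 FPKM, and microglia library 3 and monocyte library 2 each show a part of the set.

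Members took 1.19% and 0.729% of all counts in monocytes (95% exact binomial intervals 1.18% to 1.20% and 0.722% to 0.735%). In microglia they took 0.450%, 0.607% and 0.174% (0.445% to 0.455%, 0.602% to 0.612% and 0.171% to 0.178%). In monocyte library 1, Ifitm3 alone had 30283 of the 40756 reads of the set (74.3%). Without Ifitm3 the shares were 0.306% and 0.704% in monocytes, against 0.424%, 0.590% and 0.174% in microglia, and the groups overlapped. The leading member differed in nearly every library. It was Ifitm3 in monocyte library 1 and Slfn5 in monocyte library 2 (8334 reads, 17.6% of the set), while in microglia it was Oasl2 in library 1 (2796 reads, 9.37%) and library 2 (9971 reads, 18.2%) and Ifngr1 in library 3 (3850 reads, 37.5%). Mitochondrially encoded genes took 39.9% and 28.5% of counts in monocytes, against 11.1%, 39.0% and 17.6% in microglia. With them left out of the total, members took 1.99% and 1.02% in monocytes, against 0.506%, 0.995% and 0.212% in microglia.

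**Figure D2:**
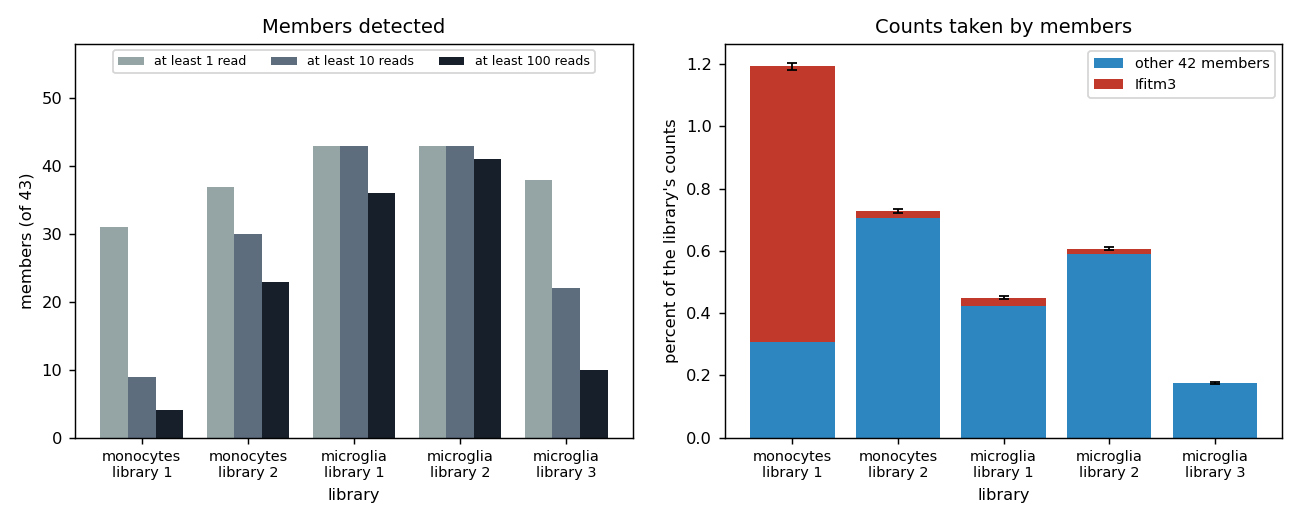
Left, number of the 43 members with at least 1, 10 or 100 reads in each library; right, percent of the counts of each library taken by Ifitm3 (red) and by the other members (blue), with 95% exact binomial intervals of the sum as error bars. Only 4 members reached 100 reads in monocyte library 1, where Ifitm3 made up most of the 1.19%, against 36 and 41 members in microglia libraries 1 and 2.

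Between the cell types, edgeR's quasi-likelihood test with adjustment over all 10105 genes called 0 members higher and 0 lower in monocytes at an adjusted p under 0.05. Of all genes tested it called 0.0594% higher and 0% lower. At an unadjusted p under 0.05, 8 members (18.6%) were higher in monocytes, beside 8.52% of all genes, and 0 were lower, beside 3.35%. DESeq2, which gave an adjusted p to 30 members, called 10 higher and 0 lower, beside 22.7% and 2.33% of the 4471 genes with one, and limma-voom called 1 higher and 0 lower, beside 0.317% and 0%. With library totals in place of TMM factors, 1 member was higher and 14 were lower at an unadjusted p under 0.05, beside 1.61% and 35.1% of all genes. The common dispersion between libraries of a group was 1.57. On data simulated at that spread, the edgeR test found 0% of the genes shifted by 3 log2 units and 1% of those shifted by 6. In that setting the fit had almost no power for changes of these sizes. Unlike the data, the simulated libraries shared the same mean profile apart from the shifts, and every gene had the same dispersion. With 3 libraries against 2, an exact two-sided permutation test cannot go below 0.1 for a single gene. The paper counts mice as its n for these groups, but neither it nor the labels tie each library to a mouse, so the p-values measure the spread between these libraries, which may be technical.

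The median log2 fold change, monocytes over microglia, was 0.30 over the 43 members and -1.11 over all genes tested, and 24 members (55.8%) lay above 0, beside 36.3% of all genes. With library totals, 13 members (30.2%) lay above 0, beside 14.5% of all genes, and the sign of the median rested on the scaling. TMM factors were 0.0929 and 0.611 in monocytes, against 3.76, 2.73 and 1.71 in microglia, so fold changes by TMM stand far above those by library totals, where the median was -2.26 over the members and -4.73 over all genes. It also rested on single libraries, being -3.02 without monocyte library 2 and -0.20 without microglia library 3. The members Ifi44 and Ifi35 had no read in monocytes, and the median was 0.30 also with both at the bound that 3 counts over the group allow. By CPM, both monocyte libraries lay below all 3 microglia libraries in 7 members (16.3%), beside 48.0% of all genes, and above all 3 in 0 members, beside 0.673%. The 7 were Ifnar2, Ifit3b, Oas2, Mx1, Bst2, Gbp3 and Igtp. In Ifit3b, Oas2 and Bst2 the nearest libraries had 1 read in monocytes against 1 in microglia, 2 against 4 and 1 against 6, too few to separate them at this depth. The count depended on microglia library 3 and on each monocyte library, as it was 25 without microglia library 3 (beside 75.5% of all genes), 11 without monocyte library 1 (beside 55.2%) and 28 without monocyte library 2 (beside 71.4%).

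The receptors differed from one another in monocyte library 2. Ifnar1, which with Ifnar2 binds type I interferon, had 0.946 and 20.7 FPKM in monocytes, against 30.8, 12.2 and 28.2 FPKM in microglia, so that monocyte library 2 fell among the microglia. Its partner Ifnar2 had only 0.352 and 0.876 FPKM in monocytes, against 78.3, 46.2 and 30.2 FPKM in microglia, with no overlap. Ifngr1, the chain that binds interferon-gamma, had 0.925 and 170 FPKM in monocytes, against 64.8, 25.7 and 230 FPKM in microglia, with monocyte library 2 and microglia library 3 the highest. Its log2 fold change by edgeR was 1.43 (SE 1.96, adjusted p = 0.723). Ifngr2, the chain that completes that receptor, had 0.353 and 268 FPKM in monocytes, against 60.1, 20.7 and 1.13 FPKM in microglia. The edgeR log2 fold change was 4.76 (SE 2.17, adjusted p = 0.330). Without monocyte library 2 the fold change of Ifngr2 was -2.03 and that of Ifngr1 -3.42, so the positive values came from that library. Transcripts of Ifnar2 share 6.31% of their stretches of 100 bases with another gene, and its reads are uncertain to that extent.

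Among the transcription factors, Irf9 stood out in monocyte library 2. Irf9, the DNA-binding part of the complex that reads the ISRE, had 0 and 123 FPKM in monocytes, against 10.7, 6.50 and 20.7 FPKM in microglia. Its log2 fold change by edgeR was 4.13 (SE 2.08, adjusted p = 0.415). All 4331 monocyte reads of Irf9 were in library 2, and library 1 had 0. Stat2, its partner after type I interferon, had 0.0666 and 6.70 FPKM in monocytes, against 60.3, 45.5 and 0.309 FPKM in microglia, and there monocyte library 2 lay below microglia libraries 1 and 2. Irf7, which amplifies the type I response, had 0 and 2.20 FPKM in monocytes, against 12.7, 3.79 and 0.0450 FPKM in microglia. Irf1, a factor induced by interferon-gamma whose promoter carries the GAS element shown above, had 0 and 0.116 FPKM in monocytes, against 5.65, 7.33 and 0.0854 FPKM in microglia. Stat2, Irf7 and Irf1 were therefore low in microglia library 3 as in monocyte library 1, while Irf9 was highest among microglia in library 3. Sp100, a protein of nuclear bodies, had 0.271 and 11.2 FPKM in monocytes, against 14.8, 32.1 and 0.270 FPKM in microglia, with microglia library 3 as low as monocyte library 1.

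Of the sensors of nucleic acid, Ifih1, Zbp1 and Ifi204 were abundant in monocyte library 2 and near 0 in monocyte library 1. Ifih1 (MDA5), which detects long double-stranded RNA, had 0.143 and 113 FPKM in monocytes, against 12.4, 25.1 and 0.873 FPKM in microglia. The edgeR log2 fold change was 4.41 (SE 2.14, adjusted p = 0.381). Without monocyte library 2 it was -2.46. Zbp1, which senses Z-form nucleic acid and can start cell death, had 0 and 109 FPKM in monocytes, against 30.6, 25.2 and 0.385 FPKM in microglia. Ifi204, a DNA-binding protein of the AIM2-like family, had 0.329 and 73.1 FPKM in monocytes, against 23.2, 87.8 and 5.44 FPKM in microglia. It shares 10.7% of its stretches of 100 bases with family members such as Ifi207 and Ifi211, so its reads are uncertain. Dhx58 (LGP2), which modulates RNA sensing, had the opposite order in monocytes, with 1.16 and 0.0938 FPKM, against 19.2, 7.89 and 0.519 FPKM in microglia. None of the 4 sensors passed the adjusted test by edgeR, and DESeq2 called Ifih1 and Zbp1 higher in monocytes. Their fitted log2 fold changes were above 0 by edgeR with TMM, but by limma-voom that of Dhx58 was -0.84, with library totals it was -3.86 and that of Ifi204 -0.09, and without monocyte library 2 that of Ifi204 was -2.94. Dhx58 rested on 13 and 2 reads in monocytes.

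Isg15 is a ubiquitin-like protein that is joined to other proteins, and Usp18 removes it and damps the type I receptor. Isg15 had 0 and 4.06 FPKM in monocytes, against 7.18, 22.4 and 0.225 FPKM in microglia, and Usp18 had 0 and 6.44 FPKM in monocytes, against 32.9, 26.7 and 0.913 FPKM in microglia. Both were at 0 in monocyte library 1, and both were lowest among microglia in library 3. The Isg15 promoter carries 3 overlapping matches to the ISRE, yet its level was modest even where it was highest, at 22.4 FPKM.

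The 4 Ifit genes, which encode proteins that bind viral RNA and hinder its translation, lie near one another on chromosome 19, in the order Ifit2, Ifit3, Ifit3b and Ifit1, between 34550694 and 34650009 (GRCm38). Microglia libraries 1 and 2 expressed all 4, and monocyte library 2 expressed some and not others. Ifit2 had 0.224 and 69.3 FPKM in monocytes, against 39.1, 55.1 and 0.389 FPKM in microglia, so monocyte library 2 was above every microglia library. Ifit3 had 0.168 and 21.4 FPKM in monocytes, against 46.4, 93.0 and 0.486 FPKM in microglia. Ifit1 had 0.220 and 0.925 FPKM in monocytes, against 13.5, 70.0 and 0.447 FPKM in microglia, and Ifit3b had 0 and 0.0768 FPKM in monocytes, against 11.9, 31.1 and 0.0849 FPKM in microglia. In reads, monocyte library 2 held 1774 for Ifit2, 243 for Ifit3, 16 for Ifit1 and 1 for Ifit3b, while microglia library 2 held 1953, 1464, 1678 and 561. Ifit3 and Ifit3b, whose printed promoter stretches are identical, share 31.7% and 27.4% of their stretches of 100 bases, so the split of reads between them is uncertain. In microglia library 3 all 4 were under 0.5 FPKM.

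**Figure D3:**
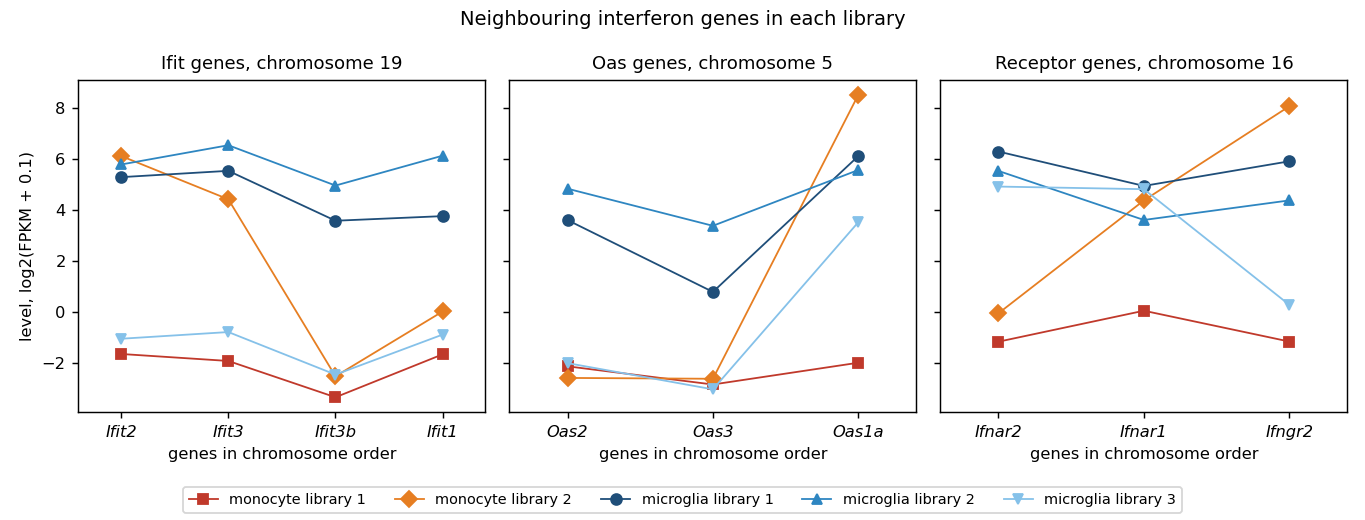
Levels as log2(FPKM + 0.1) of members that neighbour one another on chromosomes 19, 5 and 16, in chromosome order on the x axis, with 1 line for each of the 2 monocyte and 3 microglia libraries; lines only join the points of a library. Within each group of neighbours monocyte library 2 spans the widest range, from 69.3 FPKM for Ifit2 to 0.0768 FPKM for Ifit3b and from 365 FPKM for Oas1a to 0.0651 FPKM for Oas3.

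The oligoadenylate synthetases showed the same unevenness. Oas1a, Oas2 and Oas3, which make the messenger that activates RNase L, lie between 120730333 and 120907521 on chromosome 5. Oas1a had 0.155 and 365 FPKM in monocytes, against 69.3, 47.5 and 11.4 FPKM in microglia. Its log2 fold change by edgeR was 4.39 (SE 2.11, adjusted p = 0.370). Without monocyte library 2 it was -4.03, a value that rests on 1 read. Oas2 had 0.131 and 0.0690 FPKM in monocytes, against 12.1, 28.5 and 0.153 FPKM in microglia, and Oas3 had 0.0414 and 0.0651 FPKM in monocytes, against 1.64, 10.4 and 0.0240 FPKM in microglia. Thus monocyte library 2 held 4482 reads of Oas1a, 2 of Oas2 and 3 of Oas3. Oas1a shares 40.9% of its stretches of 100 bases with Oas1g, which had 0 and 2 reads in monocytes, against 555, 321 and 2 in microglia. Oasl2, a relative on the same chromosome, was read in all 5 libraries, with 33.6 and 73.5 FPKM in monocytes, against 66.1, 173 and 1.07 FPKM in microglia.

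Effectors that act inside the cell were carried mostly by microglia libraries 1 and 2. Mx1, a GTPase that traps incoming virus and is truncated in most inbred strains, had 0 and 0.632 FPKM in monocytes, against 29.9, 46.1 and 7.40 FPKM in microglia, with no overlap. Mx2, which the annotation lists as a polymorphic pseudogene, had 0.162 and 1.95 FPKM in monocytes, against 11.6, 23.7 and 0.376 FPKM in microglia. Rsad2 (viperin), which makes a chain terminator of RNA synthesis, had 0 and 3.37 FPKM in monocytes, against 21.1, 36.6 and 0.196 FPKM in microglia. Cmpk2, a mitochondrial nucleotide kinase and the neighbour of Rsad2 on chromosome 12, had 0.0915 and 0 FPKM in monocytes, against 4.43, 3.36 and 0 FPKM in microglia. The Cmpk2 value in monocytes was 1 read in all, and Rsad2 had 95 reads in monocyte library 2 and 0 in library 1.

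The membrane proteins held the highest level of the whole set. Ifitm3, which stiffens endosomal membranes against virus fusion, had 13071 and 366 FPKM in monocytes, against 377, 247 and 3.00 FPKM in microglia, so the monocyte libraries differed by more than 10 times and library 2 lay between microglia libraries 1 and 2. The edgeR log2 fold change was 10.13 (SE 3.43, adjusted p = 0.147). Ifitm2, its relative and near neighbour on chromosome 7, had 0 and 51.1 FPKM in monocytes, against 9.44, 3.22 and 0 FPKM in microglia. Its log2 fold change by edgeR was 5.09 (SE 2.00, adjusted p = 0.231). The relatives thus peaked in different monocyte libraries, Ifitm3 in library 1 and Ifitm2 in library 2, and library 1 had 0 reads of Ifitm2. Ifitm2 shares 34.9% of its stretches of 100 bases with predicted genes, and Ifitm3 shares 0%. Bst2 (tetherin), which holds budding virus on the cell and has overlapping ISRE matches in its promoter, had 0.324 and 0 FPKM in monocytes, against 43.6, 38.9 and 1.13 FPKM in microglia. Of the 14 endothelial and mural markers, Flt1 had 1 and 3205 reads in monocytes, against 519, 688 and 5 in microglia, and Cspg4 had 8 and 85 reads in monocytes, against 996, 313 and 7 in microglia, while Cldn5 and Cdh5 had at most 1 read in either monocyte library. The part of such cells in the Ifitm values was not tested.

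Of the 4 members that are GTPases known for their induction by interferon-gamma, Gbp2, Gbp3 and Igtp were below 0.3 FPKM in both monocyte libraries and Irgm1 was not. Gbp2 and Gbp3, which coat vacuoles that hold pathogens, each had 1 read in monocyte library 1 and 0 in library 2. Gbp2 had 0.116 and 0 FPKM in monocytes, against 3.12, 10.7 and 0.0675 FPKM in microglia, and Gbp3 had 0.0896 and 0 FPKM in monocytes, against 3.69, 4.24 and 4.06 FPKM in microglia. Igtp (Irgm3), an immunity-related GTPase of the endoplasmic reticulum, had 0.145 and 0.228 FPKM in monocytes, against 21.3, 32.8 and 14.6 FPKM in microglia, and neither Gbp3 nor Igtp overlapped between the groups. Irgm1, which regulates the other GTPases of its family, had 1.21 and 4.83 FPKM in monocytes, against 4.51, 13.1 and 2.05 FPKM in microglia. Gbp3 was even within microglia, at 3.69 to 4.24 FPKM, and Igtp at 14.6 to 32.8 FPKM and Irgm1 at 2.05 to 13.1 FPKM also kept a level in microglia library 3. Reads of Igtp are uncertain for the 5.16% of its stretches of 100 bases shared with Irgm2.

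Other induced genes fell into those carried by monocyte library 1, those carried by monocyte library 2 and those absent from both. Trim30a, which restrains signalling from Toll-like receptors, had 447 and 19.6 FPKM in monocytes, against 32.9, 101 and 113 FPKM in microglia, and Parp14, an ADP-ribosyltransferase, had 104 and 2.69 FPKM in monocytes, against 42.1, 39.3 and 6.79 FPKM in microglia. By edgeR, Trim30a had a log2 fold change of 6.06 (SE 2.66, adjusted p = 0.305). By edgeR, Parp14 had a log2 fold change of 5.86 (SE 2.54, adjusted p = 0.294). Without monocyte library 1 these were -0.53 and -1.45. Trim30a and Parp14, with Ifitm3 and Oasl2 (731 reads), were the 4 members with at least 100 reads in monocyte library 1. Slfn5, which controls growth and transcription, had 1.53 and 202 FPKM in monocytes, against 46.5, 91.9 and 0.725 FPKM in microglia, while its relative Slfn2 had 0.176 and 0.0922 FPKM in monocytes, against 34.6, 9.53 and 0 FPKM in microglia. Ifi27l2a, a small mitochondrial protein, had 15.2 and 167 FPKM in monocytes, against 108, 102 and 1.10 FPKM in microglia. The edgeR log2 fold change was 3.30 (SE 1.86, adjusted p = 0.470). Rtp4, a receptor chaperone, had 0.137 and 46.4 FPKM in monocytes, against 19.6, 34.5 and 7.09 FPKM in microglia, and Xaf1, which promotes apoptosis, had 0.0624 and 11.4 FPKM in monocytes, against 29.7, 17.9 and 0.797 FPKM in microglia. Ifi44 and Ifi35 had 0 reads in both monocyte libraries and 366 and 364 reads over the 3 microglia libraries, so pooled CPM was at least 56.2-fold and 55.9-fold lower in monocytes, with 3 counts over the group as the floor. Scaled by TMM, the same floor gave at least 8.78-fold and 8.73-fold. Both were also at 0 in microglia library 3, so neither separated the groups. Rtp4 and Trim30a share 9.28% and 4.41% of their stretches of 100 bases with other genes, so part of their reads is uncertain.

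Within monocytes, the libraries held different parts of the set. Under a rule chosen after the values were seen, 25 of the 43 members (58.1%) had a CPM in monocyte library 1 below 0.1 times that in library 2, beside 44.1% of all genes, and 8 had the reverse, beside 10.4% of all genes. Monocyte library 2 exceeded every microglia library in 10 members (23.3%), beside 12.3% of all genes, namely Ifngr2, Irf9, Ifih1, Zbp1, Ifit2, Oas1a, Ifitm2, Ifi27l2a, Rtp4 and Slfn5. Monocyte library 1 did so in 3 (6.98%), beside 3.31% of all genes, namely Ifitm3, Trim30a and Parp14, and no member was in both lists. Across the 43 members, as a description, Spearman's rho of FPKM was 0.38 between the monocyte libraries and 0.71 between microglia libraries 1 and 2. Across all genes tested, rho was 0.40 and 0.66. All genes share the totals and amplification of their library, so the points are not independent.

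Within microglia, library 3 held fewer of the members than libraries 1 and 2. By a rule also chosen after the values were seen, 30 members (69.8%) had a CPM in library 3 below 0.1 times the lower of libraries 1 and 2, beside 40.5% of all genes. The 13 members outside that rule were Ifnar1, Ifnar2, Ifngr1, Irf9, Ifi204, Oas1a, Mx1, Gbp3, Igtp, Irgm1, Rtp4, Trim30a and Parp14. They include 3 of the 4 receptors and 3 of the 4 GTPases induced by interferon-gamma. None of the 4 Ifit genes, of the Isg15 pair or of the membrane proteins was among them. Most of all genes tested also lay outside that rule. Related GTPases that are not members did not all keep a level in library 3. In microglia, Irgm2 had 463, 1042 and 39 reads, Gbp5 had 212, 309 and 2, and Gbp7 had 178, 419 and 8. Iigp1 had 191, 774 and 1, Ifi47 had 38, 125 and 4, and Gvin1 fell less, with 38, 363 and 18. The summed homeostatic markers of microglia were highest in library 3, at 29433 CPM, against 20401 and 12232 CPM in libraries 1 and 2. Among all tested genes, the median member ranked at percentile 61.4 and 76.4 in monocytes, against 82.2, 90.0 and 46.8 in microglia. Percentiles rank genes within a library and do not compare levels between libraries. The median member had 0.145 and 4.83 FPKM in monocytes, against 23.0, 26.7 and 0.725 FPKM in microglia. In monocyte library 1 that median was Igtp, with 1 read. Library 3 also had the fewest genes with 10 or more reads among microglia, 5994, and the part of coverage in these values was not tested.

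**Figure D4:**
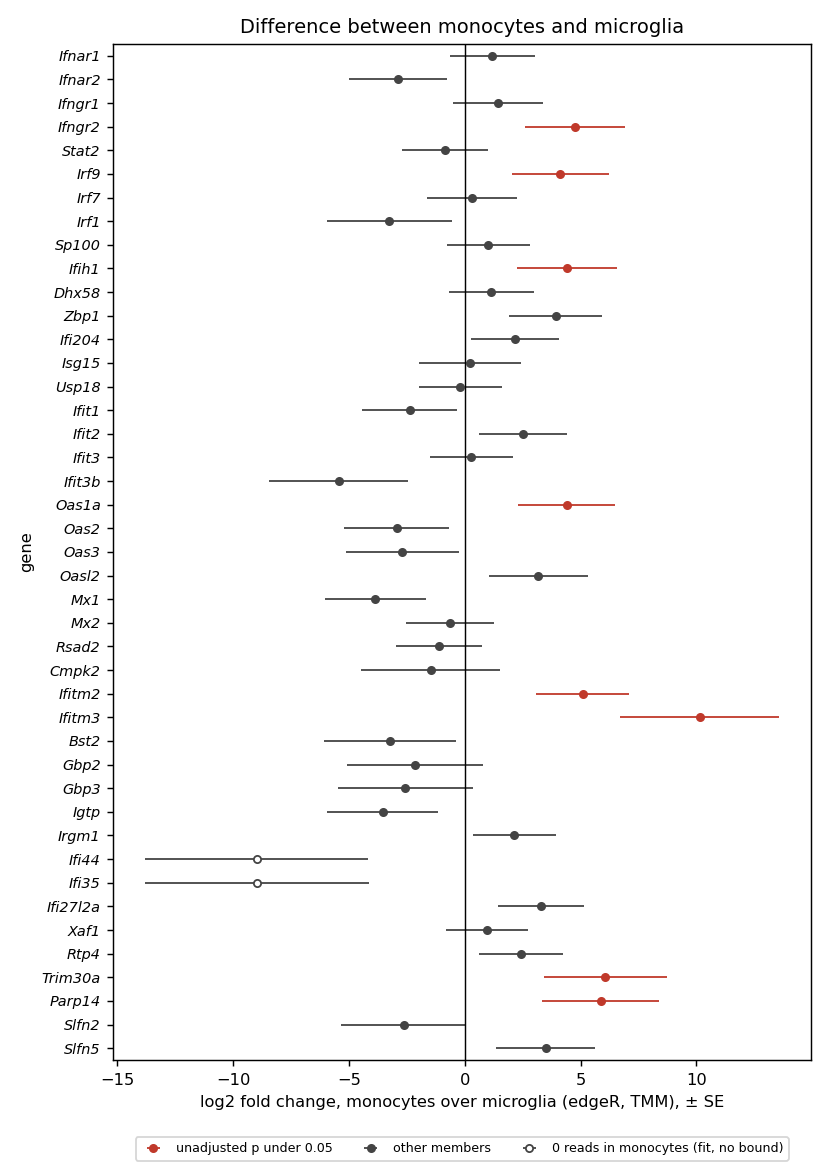
Fitted log2 fold change of each member, monocytes over microglia, from edgeR with TMM scaling, with bars of ± 1 SE and the 8 members at an unadjusted p under 0.05 in red. Open circles are Ifi44 and Ifi35, which had 0 reads in monocytes, so that their fitted values are no bound. Ifitm3 lies highest at 10.13, and no member passed the adjusted test.

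Of the 8 members at an unadjusted p under 0.05, 7 had fitted values below 0 when 1 monocyte library was left out, 5 of them without library 2 and 2 without library 1. For Irf9 and Ifitm2 the remaining library had 0 reads. With 3 counts there as the floor, the log2 bound by TMM was -1.26 for Irf9 and 3.23 for Ifitm2, so a negative sign is not shown for Ifitm2. Over all 43 members, the fitted sign changed in 17 without monocyte library 2 and in 25 under at least 1 alternative. Sign changes were not counted over all genes, but their signs moved as well. The share of genes tested with a fold change above 0 was 36.3% in the main fit. It was 18.4% without monocyte library 2 and 14.5% with library totals. Of the 8, Ifitm3 alone stayed above 0 without either monocyte library, at 10.15 without library 2 and 2.95 without library 1. All 8 were above 0 with library totals, RLE factors, DESeq2 and limma-voom. By the rule given above, microglia library 3 was low in 13 of the 18 members with an ISRE in the window and in 11 of the 15 without. Among the 18 with an ISRE, 9 had fold changes above 0, with a median of -0.33, and among the 15 without, 9 had, with a median of 0.97. These are counts over genes, with no test.

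The rest of the pathway was read from a list of 151 other genes, of which 106 were tested. edgeR called 0 higher and 0 lower at an adjusted p under 0.05, with 12 higher (11.3%, beside 8.52% of all genes) and 4 lower (3.77%, beside 3.35%) at an unadjusted p under 0.05. DESeq2 gave an adjusted p to 69 of them and called 13 higher (18.8%, beside 22.7% of all genes) and 3 lower (4.35%, beside 2.33%). Their median log2 fold change was -1.12. By CPM, 43 of the 106 (40.6%, beside 48.0% of all genes) had both monocyte libraries below all 3 microglia libraries, and 0 had both above, beside 0.673%. The ligands were almost unread, as of 21 interferon genes only Ifna11 had any reads, 2 in microglia library 2, and the floor of 3 counts was 0.878 and 0.461 CPM in monocytes, against 0.333 to 0.509 CPM in microglia. Absence at that depth does not show that the genes are silent. The most abundant of the 151 was B2m, the light chain of MHC class I, with 7797 and 8115 FPKM in monocytes, against 5597, 9135 and 3339 FPKM in microglia, and its groups overlapped. Lgals3bp, a secreted glycoprotein, had 10.3 and 1304 FPKM in monocytes, against 1639, 543 and 38.3 FPKM in microglia, and Ly6e, a membrane protein, had 387 and 346 FPKM in monocytes, against 873, 260 and 145 FPKM in microglia. Ccl12, a chemokine for monocytes, had 135 and 625 FPKM in monocytes, against 116, 398 and 2.53 FPKM in microglia. Tlr7, a sensor of single-stranded RNA, had 5.09 and 44.1 FPKM in monocytes, against 68.9, 342 and 464 FPKM in microglia, with no overlap.

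The 5 genes of that list with the smallest p each had most of their monocyte reads in 1 library. Oas1b, which lies with the other Oas genes, had 1201 and 1 reads in monocytes, against 224, 135 and 3 in microglia (log2 fold change 8.61, SE 2.67, adjusted p = 0.110 by edgeR). Oas1b thus peaked in monocyte library 1 and Oas1a in library 2. Ddx60, a helicase that aids RNA sensing, had 8875 and 99 reads in monocytes, against 412, 1628 and 5 in microglia (adjusted p = 0.147 by edgeR). Ifi47, an immunity-related GTPase, had 0 and 1918 reads in monocytes, against 38, 125 and 4 in microglia (adjusted p = 0.134 by edgeR). Tgtp2, of the same family, had 271 and 0 reads in monocytes, against 13, 162 and 0 in microglia (adjusted p = 0.114 by edgeR). Pias1, an inhibitor of Stat proteins, had 4980 and 410 reads in monocytes, against 1447, 693 and 211 in microglia (adjusted p = 0.184 by edgeR).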

How the data were processed

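The authors sorted the cells, amplified the cDNA and sequenced 5 libraries of this comparison. STAR, listed as 2.5.2a by the submitters' processing notes, aligned the reads to GRCm38, and the authors deposited counts of read pairs per gene on GENCODE vM12, with no normalization. They also deposited FPKM, which on checking equalled the same counts scaled by gene length and by the library total. The authors' log2 CPM table and 2 tables of their own comparison (log2 fold change and p) were not used, nor were 4 columns of other samples in each table.

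The cell types were compared on these counts with the quasi-likelihood test of edgeR (version 4.0.16, under R version 4.3.3), scaled by TMM. Its own low-count filter kept 10105 genes, over which p-values were adjusted by the Benjamini-Hochberg method. The test gives no SE. The SE printed with edgeR fold changes is the absolute log2 fold change divided by the square root of the F statistic. Alternatives were limma-voom (limma 3.58.1), DESeq2 1.42.0, RLE factors, library totals, a filter of more than 1 CPM in 2 or more libraries, no filter at all, and leaving out each library. Total counts were 3417150 to 9021700 per library, and 0 counts allow at most 3 counts, or 0.333 to 0.878 CPM depending on the library. The fit was tested on simulated data with 200 changed genes among the 10105. With a dispersion of 0.1, it found 96% of genes shifted by 3 log2 units and 96% of those shifted by 6, and 8 genes that had not been shifted.

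The members, the pathway list and the marker lists were chosen with earlier results of these data known. Every member is named. Tests are given for members at an unadjusted p under 0.05 and for the 5 with the highest mean FPKM, and, of the pathway list, values for the 5 with the highest mean FPKM and the 5 with the smallest p. Promoter windows are from RefSeq (GRCm38.p6), gene positions and shared stretches of 100 bases from GENCODE vM21. The strand setting of the counting is not given in the sources used here. Slfn5, Ifi35, Dhx58, Usp18 and Irf1, which overlap antisense genes, therefore cannot be told apart from them there. Other steps used Python 3.11.15, scipy 1.17.1, pandas 2.3.3, numpy 2.4.6 and, for plots, matplotlib 3.10.9.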

Additional observations from a re-analysis of the deposited data

How the results depend on the processing

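With other tools, members called higher in monocytes numbered 1 (limma-voom: Ifitm3) and 10 (DESeq2), against 0 by edgeR, and leaving out each library in turn gave 0 to 3. It gave 3 without monocyte library 1 (Ifngr2, Ifih1 and Oas1a) and 3 without monocyte library 2 (Ifitm3, Trim30a and Parp14), beside 2.61% and 2.51% of all genes. Members called lower stayed at 0 in all 11 alternatives. DESeq2 called 13 genes of the pathway list higher and 3 lower, and leaving out each library gave 0 to 5 higher and 0 lower. The median log2 fold change of members was -2.26 with library totals and -3.02 to 1.54 with a library left out. Without the filter on low counts it was -0.03. Members lower in both monocyte libraries numbered 4 by CPM scaled with TMM factors (beside 21.5% of all genes) and 3 by rank within the library (beside 10.8%), in place of 7, and 7 to 28 with a library left out (beside 49.0% to 75.5%). Members higher in both numbered 4 by CPM scaled with TMM factors (beside 4.91%), in place of 0, and 0 to 10 with a library left out (beside 0.782% to 12.3%). Among the 10 members given with a test, log2 fold changes that changed sign, with their range when each library was left out, were those of Ifngr1 (-3.42 to 3.42, and -0.33 with library totals), Ifngr2 (-2.03 to 5.49), Irf9 (-11.90 to 5.25), Ifih1 (-2.46 to 5.11), Oas1a (-4.03 to 5.11) and Ifitm2 (-6.61 to 5.78), negative without monocyte library 2, and of Trim30a (-0.53 to 6.79) and Parp14 (-1.45 to 5.86), negative without monocyte library 1. The negative values of Irf9 and Ifitm2 are fits to 0 reads and no bound, and a negative sign is not shown for Ifitm2. Leaving out a monocyte library leaves 1, which is assumed to vary as the microglia do. Over these 10 members and the 11 alternatives, 86 fold changes kept their direction and side of the threshold, 15 passed a threshold missed by edgeR over all libraries, and 9 changed sign. The cause of these shifts was not tested. No paired analysis was possible because monocytes and microglia have no replicate numbers in common. Depth limits the 12 members at 0 in monocyte library 1, where 3 counts are 0.878 CPM.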
